A study of Mus musculus with 6 samples.

Results

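The genes described here are 10 genes of Toll-like receptor signaling and of the inflammasome, taken by their symbols from the 49671 genes of a liver RNA-seq count table. They are the receptors *Tlr2*, *Tlr4*, *Tlr7* and *Tlr9*, the co-receptor *Cd14*, the adaptor *Myd88*, the inflammasome sensor *Nlrp3*, its adaptor *Pycard*, the protease *Casp1* and the pore protein *Gsdmd*. All 10 had counts and entered the test. The study asked how loss of SHMT2, the mitochondrial enzyme that splits serine into glycine and a one-carbon unit, alters the liver under an over-nutritious diet. Livers came from 3 SHMT2 fl/fl and 3 SHMT2 HKO male C57BL/6J mice, all carrying the floxed *Shmt2* gene. In SHMT2 HKO mice, Cre under the albumin promoter removes the gene from hepatocytes. The study proposes that its expression in other liver cells is unaffected, which these whole-liver counts do not show. Each of the 6 mice ate the AMLN diet, a feed with much fat, cholesterol and fructose, for 18 weeks starting at the age of 4 weeks, and was harvested at 22 weeks. SHMT2 fl/fl stands for the group labelled WT, and SHMT2 HKO for the group labelled KO.

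Toll-like receptors bind molecules shared by many microbes, and also products of damaged cells. *Tlr2* and *Tlr4* sit at the cell surface and recognize lipoproteins and lipopolysaccharide, while *Tlr7* and *Tlr9* sit in endosomes and recognize single-stranded RNA and CpG DNA. Most of them signal through MyD88 to NF-κB, which raises cytokine genes. The inflammasome is a cytosolic complex in which NLRP3 and ASC, the product of *Pycard*, activate caspase-1, which cleaves pro-IL-1β, pro-IL-18 and gasdermin D. In the liver these genes are best known from Kupffer cells and recruited macrophages, with some expressed by hepatocytes, endothelial cells and stellate cells.

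RefSeq promoter entries (GRCm38.p6) were found for 6 of the 10 genes, 7 entries in all. The 250 bases before the start are shown for the 4 entries free of annotated exons, which belong to *Pycard*, *Casp1*, *Tlr9* and *Nlrp3*. The *Nlrp3* entry belongs to a start inside the annotated gene. Capitals mark matches to motifs searched on both strands, here GAGGAA, a core of PU.1 sites, and TGANTCA, the AP-1 site. PU.1 is a transcription factor of the myeloid lineage.
*Pycard*, chr7:127993868-127994117, minus strand: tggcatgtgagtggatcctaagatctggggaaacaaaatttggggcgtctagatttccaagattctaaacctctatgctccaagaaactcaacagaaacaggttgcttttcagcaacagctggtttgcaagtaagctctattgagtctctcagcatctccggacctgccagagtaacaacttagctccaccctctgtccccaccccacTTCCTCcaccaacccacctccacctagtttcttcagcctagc
*Casp1*, chr9:5298267-5298516, plus strand: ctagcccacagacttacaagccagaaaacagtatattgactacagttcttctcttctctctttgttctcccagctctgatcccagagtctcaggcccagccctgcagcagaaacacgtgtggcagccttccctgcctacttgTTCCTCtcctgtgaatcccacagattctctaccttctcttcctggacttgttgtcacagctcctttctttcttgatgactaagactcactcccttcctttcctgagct
*Tlr9*, chr9:106222348-106222597, plus strand: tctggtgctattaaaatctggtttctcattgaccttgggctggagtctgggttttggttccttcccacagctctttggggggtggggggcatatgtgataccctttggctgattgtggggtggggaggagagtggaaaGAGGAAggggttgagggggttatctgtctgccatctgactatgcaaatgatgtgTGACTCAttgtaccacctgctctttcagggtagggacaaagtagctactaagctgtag
*Nlrp3*, chr11:59542436-59542685, plus strand: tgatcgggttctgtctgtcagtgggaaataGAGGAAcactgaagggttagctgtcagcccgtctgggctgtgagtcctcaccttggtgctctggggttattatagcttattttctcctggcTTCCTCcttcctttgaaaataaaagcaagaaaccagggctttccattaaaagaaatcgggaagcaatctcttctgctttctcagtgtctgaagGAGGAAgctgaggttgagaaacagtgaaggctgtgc
The GAGGAA letters began 42 bases before the start in *Pycard* and 108 in *Casp1*, read on the opposite strand, and 112 in *Tlr9* on the same strand. In *Nlrp3* they began 220 and 36 bases before the start on the same strand and 129 on the opposite strand. *Tlr9* also held TGANTCA, 58 bases before the start. Among 32851 promoters of the same length, 23.3% held GAGGAA and 6.75% held TGANTCA. An NF-κB motif (GGGA and TTCC with 2 bases between them), held by 1.21% of promoters, did not occur in these 4 sequences. Neither did an IRF motif (GAAA repeated with 2 bases between, 2.98% of promoters), the letters TATAAA of the TATA box (12.4%) or the letters GGGCGG of the GC box (32.7%). The motifs do not overlap each other in these sequences. The 3 entries that include annotated exon bases held no GAGGAA. They belong to *Tlr2* (159 exon bases), *Myd88* (23) and the upstream start of *Nlrp3*, which was not shown for 1 exon base. Whether GAGGAA occurred in the *Nlrp3* entry thus depended on which start was shown. The *Tlr2* entry held GC box letters, and the *Myd88* entry GC box, TATA box and IRF letters. A match describes letters only and is not evidence of binding.

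Counts on genes ranged from 23090837 to 34089722 per liver. Levels are given as CPM, the count relative to library size after scaling by edgeR's TMM method, and 3 counts, taken as the floor, were 0.0733 to 0.152 CPM. *Shmt2* had 93.9 to 109 CPM in the control livers and 19.3 to 28.3 CPM in the knockout livers, and the genotypes did not overlap (log2 fold change -2.04, adjusted p = 0.000639). Genotypes were compared with edgeR's quasi-likelihood test (two-sided) with p-values adjusted by Benjamini-Hochberg over all 16089 genes tested, and every adjusted p-value of a gene comes from this test unless another tool is named. A gene is called at an adjusted p-value under 0.05. The labels do not say whether mice shared a litter or cage, so p-values measure the spread between these 6 livers. Livers sharing a genotype differed beyond counting noise, and all 6 were kept as separate samples.

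Of the 10 genes, 5 were called lower in SHMT2 HKO livers (*Tlr2*, *Tlr7*, *Cd14*, *Pycard* and *Casp1*), where 16.5% of all genes tested were called lower. None was called higher with edgeR, DESeq2 or limma-voom, and 0 were higher at an unadjusted p under 0.05 with edgeR. In background, 12.5% of all genes were called higher and 29% in either direction. The fitted change was below 0 for 8 of the 10 genes, compared with 48.1% of all genes. For 7 genes, the 5 called together with *Tlr9* and *Nlrp3*, all SHMT2 HKO values lay below all SHMT2 fl/fl values, compared with 25% of all genes in this direction and 46.9% in either. The same 7 passed the looser cutoff of the study's methods (p under 0.05 and adjusted p under 0.25), which 21.8% of all genes passed in this direction. The median log2 fold change was -1.01 for the 10 genes and 0.03 for all genes tested. Only 2 of the 5 calls, *Cd14* and *Pycard*, held in every fit that left out a mouse. The number called was 2 without SHMT2 fl/fl mouse 1 or without SHMT2 fl/fl mouse 3, 3 without SHMT2 HKO mouse 2 and 7 without SHMT2 HKO mouse 3. *Myd88* and *Gsdmd* were not called, with intervals of the log2 fold change of -0.27 to 0.30 and -0.33 to 0.47.

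**Figure D1:**
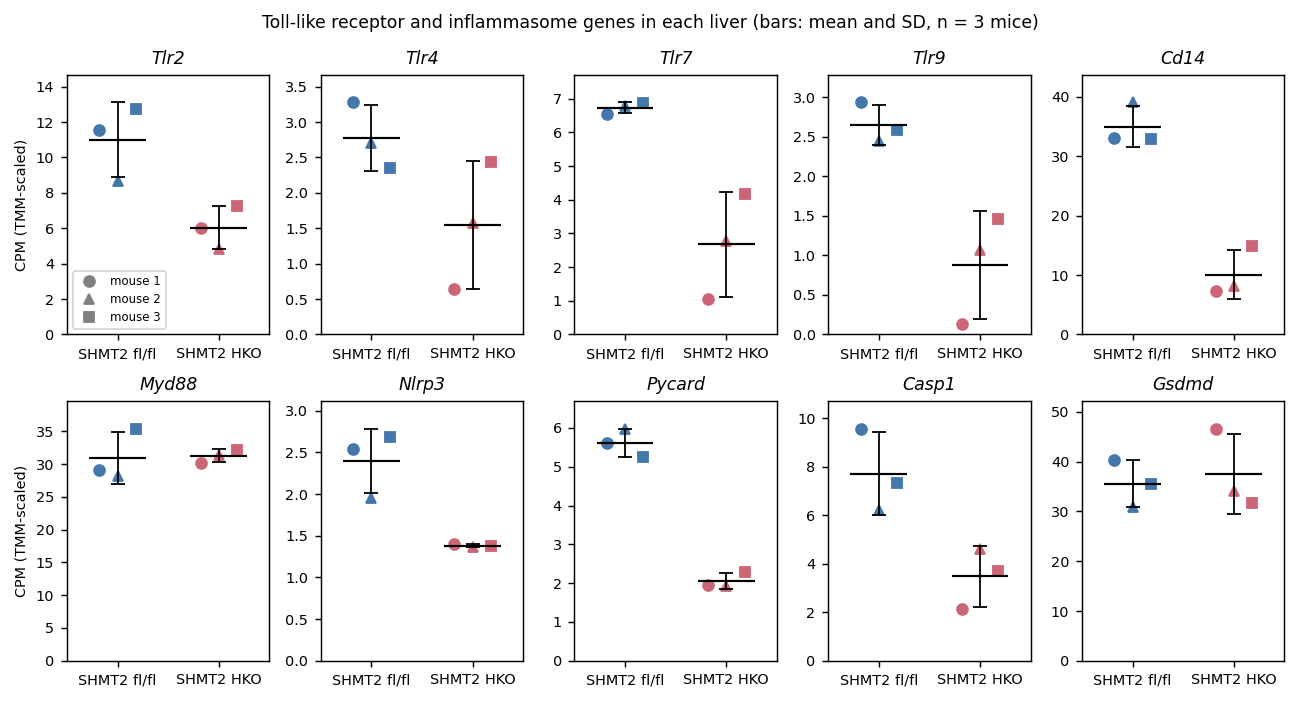
Level of each of the 10 genes in each liver, in CPM (linear axis from 0), by genotype, with symbols for mouse 1, 2 and 3 and bars for the mean and SD of 3 mice. The points of the genotypes do not overlap for 7 genes and overlap for *Tlr4*, *Myd88* and *Gsdmd*. *Pycard* and *Nlrp3* vary little among SHMT2 HKO mice, whereas *Tlr4*, *Tlr7* and *Tlr9* spread widely there.

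*Tlr2* encodes the surface receptor for lipoproteins, which pairs with TLR1 or TLR6. The gene (ENSMUSG00000027995) lies on chromosome 3 of GRCm38 from 83836272 to 83841767 on the minus strand. Its level was 11.6, 8.65 and 12.8 CPM in SHMT2 fl/fl mice 1, 2 and 3, compared with 6.03, 4.81 and 7.28 CPM in SHMT2 HKO mice 1, 2 and 3. The highest knockout value stayed below the lowest control value. *Tlr2* fell 1.82-fold, with a log2 fold change of -0.86 (standard error, SE, 0.22, adjusted p = 0.0209). The call was lost without SHMT2 fl/fl mouse 1 (adjusted p = 0.0748), SHMT2 fl/fl mouse 3 (adjusted p = 0.0935) or SHMT2 HKO mouse 2 (adjusted p = 0.0686).

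*Tlr4*, the lipopolysaccharide receptor (ENSMUSG00000039005, chromosome 4 from 66827584 to 66930284, plus strand), had few counts, 72 to 134 in SHMT2 fl/fl and 15 to 62 in SHMT2 HKO livers. Its level was 3.28, 2.71 and 2.35 CPM in SHMT2 fl/fl mice 1, 2 and 3. In SHMT2 HKO mice 1, 2 and 3 it was 0.637, 1.57 and 2.44 CPM, so that knockout mouse 3 lay within the control range and mice 1 and 2 below it. The log2 fold change was -0.84 with a 95% interval of -1.84 to 0.17 (adjusted p = 0.187), and it passed the test only without SHMT2 HKO mouse 3 (log2 fold change -1.37, adjusted p = 0.0461).

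*Tlr7*, the endosomal receptor for single-stranded RNA (ENSMUSG00000044583), is X-linked, from 167304929 to 167330558 on the minus strand. SHMT2 fl/fl livers held nearly the same level, with 6.56, 6.77 and 6.86 CPM, whereas SHMT2 HKO livers held 1.06, 2.79 and 4.17 CPM in mice 1, 2 and 3. All knockout values were below all control values, and they differed 3.93-fold among themselves. *Tlr7* fell 2.51-fold (log2 fold change -1.33, SE 0.41, adjusted p = 0.0417). The adjusted p-value rose to 0.104, 0.105 and 0.113 without SHMT2 fl/fl mouse 1, 2 or 3, to 0.103 without SHMT2 HKO mouse 2 and to 0.0520 without the filter on low counts.

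*Tlr9*, the receptor for CpG DNA (ENSMUSG00000045322, chromosome 9 from 106222598 to 106226883, plus strand), showed the widest spread among knockout livers. Its level was 2.94, 2.45 and 2.58 CPM in SHMT2 fl/fl mice 1, 2 and 3 (65 to 120 counts). SHMT2 HKO mice 2 and 3 had 1.06 and 1.46 CPM from 21 and 37 counts. SHMT2 HKO mouse 1 had 0.127 CPM from 3 counts, a count whose exact Poisson 95% interval runs from 0.0263 to 0.372 CPM and covers counting error only. The genotypes did not overlap, yet the log2 fold change of -1.58 had a SE of 0.61 and missed the threshold (adjusted p = 0.0862). It passed without SHMT2 HKO mouse 1, at a log2 fold change of -1.06 (adjusted p = 0.0252), and without SHMT2 HKO mouse 3 it was -2.21 (adjusted p = 0.0478). DESeq2 (adjusted p = 0.0367) and limma-voom (adjusted p = 0.0399) called it, as did counts scaled without TMM (adjusted p = 0.0481) or to the ERCC spike-in RNAs (adjusted p = 0.00972).

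*Cd14* encodes the co-receptor that hands lipopolysaccharide to TLR4 (ENSMUSG00000051439, chromosome 18 from 36725067 to 36726798, minus strand), and it had the lowest fitted fold change of the 10 genes. Its level was 33.1, 39.1 and 32.9 CPM in SHMT2 fl/fl mice and 7.26, 8.10 and 14.8 CPM in SHMT2 HKO mice 1, 2 and 3. Knockout mouse 3 had the highest level among SHMT2 HKO livers and was still below each control. The mean went from 35.02 ± 3.52 CPM to 10.1 ± 4.15 CPM (SD, n = 3 mice each), a 3.47-fold fall with a log2 fold change of -1.79 (SE 0.26, adjusted p = 0.00276). *Cd14* was called in all 15 alternative fits, with adjusted p-values up to 0.0144.

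*Myd88*, the adaptor of most Toll-like receptors (ENSMUSG00000032508, chromosome 9 from 119335934 to 119341411, minus strand), had 29.1, 28.1 and 35.4 CPM in SHMT2 fl/fl mice and 30.2, 31.4 and 32.1 CPM in SHMT2 HKO mice 1, 2 and 3. The knockout values lay within the control range. The fitted log2 fold change, 0.02 (SE 0.12), was not called (adjusted p = 0.936), and its sign turned in 8 of 15 alternative fits. *Myd88* shares 290 exonic bp with *Acaa1a*, a peroxisomal thiolase gene on the opposite strand that rose from 237 ± 26.4 to 385 ± 47.0 CPM (SD, n = 3 each, adjusted p = 0.0132). Whether the counting used strand is not given in the sources used here, so reads of that overlap cannot be assigned with certainty.

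*Nlrp3*, the sensor of the best-known inflammasome (ENSMUSG00000032691, chromosome 11 from 59541568 to 59566956, plus strand), was low throughout, with 52 to 104 counts in SHMT2 fl/fl and 27 to 35 in SHMT2 HKO livers. Its level was 2.54, 1.96 and 2.69 CPM in SHMT2 fl/fl mice and 1.40, 1.37 and 1.38 CPM in SHMT2 HKO mice 1, 2 and 3. Knockout livers held nearly equal levels, each below each control. The log2 fold change of -0.80 (SE 0.26) narrowly missed the threshold (adjusted p = 0.0521). It passed under library size without TMM (adjusted p = 0.0136), upper-quartile scaling (adjusted p = 0.0382) and a filter of 10 counts in every liver (adjusted p = 0.0313), and its highest adjusted p-value over 15 alternatives was 0.192.

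*Pycard* encodes ASC, the adaptor that links NLRP3 to caspase-1 (ENSMUSG00000030793, chromosome 7 from 127989708 to 127993867, minus strand). Its level was 5.602, 5.98 and 5.25 CPM in SHMT2 fl/fl mice and 1.95, 1.92 and 2.28 CPM in SHMT2 HKO mice 1, 2 and 3, so the groups were tight and well apart. *Pycard* fell 2.72-fold, from 5.61 ± 0.368 to 2.05 ± 0.199 CPM (SD, n = 3 each), with a log2 fold change of -1.45 (SE 0.20, adjusted p = 0.00249). It was called in all 15 alternative fits, with adjusted p-values up to 0.0157. *Pycard* shares 485 exonic bp with *Gm45205* on the opposite strand, which had 0 to 3 counts per liver.

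*Casp1* encodes caspase-1, which matures IL-1β and IL-18 and cleaves gasdermin D (ENSMUSG00000025888, chromosome 9 from 5298517 to 5307265, plus strand). Its level was 9.56, 6.21 and 7.33 CPM in SHMT2 fl/fl mice and 2.12, 4.61 and 3.70 CPM in SHMT2 HKO mice 1, 2 and 3. Knockout mouse 1 was lowest, and the groups did not overlap. *Casp1* fell 2.22-fold (log2 fold change -1.15, SE 0.30, adjusted p = 0.0246). The call was lost without SHMT2 fl/fl mouse 1 (adjusted p = 0.0971) or SHMT2 fl/fl mouse 3 (adjusted p = 0.0708).

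*Gsdmd* encodes gasdermin D, the membrane pore of pyroptosis (ENSMUSG00000022575, chromosome 15 from 75862327 to 75867408, plus strand). Its level was 40.4, 30.9 and 35.5 CPM in SHMT2 fl/fl mice and 46.6, 34.0 and 31.7 CPM in SHMT2 HKO mice 1, 2 and 3. The groups overlapped, with knockout mouse 1 above all others. The log2 fold change was 0.07 (SE 0.17, adjusted p = 0.783), and its sign turned in 5 of 15 alternative fits.

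**Figure D2:**
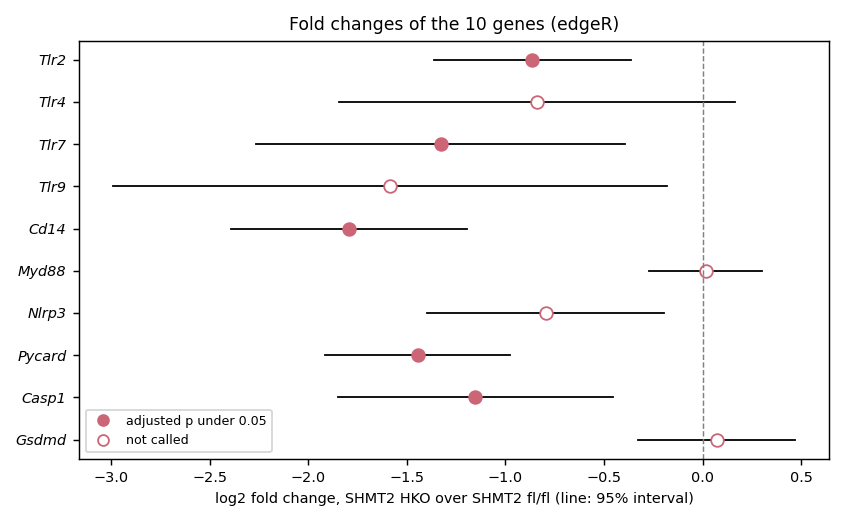
Log2 fold change of SHMT2 HKO over SHMT2 fl/fl livers for the 10 genes, with the 95% interval from edgeR as a line, and filled points for an adjusted p-value under 0.05. *Cd14* and *Pycard* lie at -1.79 and -1.45 with intervals far from 0, the interval of *Tlr9* runs from -2.99 to -0.18, and *Myd88* and *Gsdmd* lie near 0.

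Levels of different genes were compared as CPM per kb of the longest coding transcript. In SHMT2 fl/fl livers *Cd14* was the most abundant, at 21.3 ± 2.15 CPM per kb (SD, n = 3), followed by *Gsdmd* at 19.9 ± 2.65 and *Myd88* at 15.8 ± 2.01, with neighbors in this order overlapping. *Casp1* (5.14 ± 1.14) and *Tlr2* (3.65 ± 0.701) came next and overlapped, and *Tlr7* (1.73 ± 0.0405) and *Pycard* (1.48 ± 0.0970) lay below them without overlap. *Tlr9*, *Tlr4* and *Nlrp3* were lowest, at 0.763, 0.682 and 0.596 CPM per kb, and overlapped. In SHMT2 HKO livers *Gsdmd* (20.9 ± 4.49) and *Myd88* (15.9 ± 0.501) led and did not overlap, while *Cd14* stood at 6.13 ± 2.53 CPM per kb, below both and without overlap. *Casp1* (2.32) and *Tlr2* (2.004) followed, and *Tlr7*, *Pycard*, *Tlr4*, *Nlrp3* and *Tlr9* came last, from 0.686 down to 0.254 CPM per kb, with overlap between neighbors. The annotated *Pycard* transcript of 3800 bp sets its level per kb, so its place in both orders rests on that length.

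Knockout livers differed among themselves. SHMT2 HKO mouse 1 had the lowest value of the SHMT2 HKO livers for 6 genes and SHMT2 HKO mouse 3 the highest for 7. The share of all genes with the same extremes was not counted. TMM scaling factors were 0.812, 0.802 and 0.984 in SHMT2 HKO mice 1, 2 and 3, so mouse 3 also differed in its whole library. The highest knockout value exceeded the lowest 11.4-fold for *Tlr9*, 3.93-fold for *Tlr7* and 3.83-fold for *Tlr4*, compared with 1.19-fold for *Pycard*, 1.06-fold for *Myd88* and 1.02-fold for *Nlrp3*. The *Tlr9* ratio is imprecise, since its lowest value, in SHMT2 HKO mouse 1, rests on 3 counts, at the floor. The summed level of 7 recruited macrophage markers (*Ccr2*, *Ly6c2*, *Cx3cr1*, *Trem2*, *Gpnmb*, *Cd9*, *Spp1*) was 151, 169 and 369 CPM in SHMT2 HKO mice 1, 2 and 3, and that of 5 leukocyte markers (*Ptprc*, *Itgb2*, *Laptm5*, *Coro1a*, *Cd53*) was 76.9, 97.4 and 135 CPM, in the same order of mice as *Cd14*, *Tlr4*, *Tlr7* and *Tlr9*. Summed markers of macrophages and dendritic cells had this order too, as did *Myd88*, within its 1.06-fold range. Outside leukocytes, stellate cell markers (90.4, 124 and 163 CPM) and endothelial markers (203, 232 and 236 CPM) had it. Other lists did not, namely T and NK cells (3.06, 2.99 and 4.80 CPM), B cells (1.91, 4.30 and 2.60 CPM) and Kupffer cells (277, 335 and 241 CPM). Neutrophil markers (7.68, 4.46 and 8.23 CPM) and cholangiocyte markers (23.6, 22.7 and 29.9 CPM) also lacked it. Summed hepatocyte markers had the opposite order, with 100004, 97644 and 66723 CPM in SHMT2 HKO mice 1, 2 and 3.

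Marker lists of the cell types in liver moved with genotype. Recruited macrophage markers summed to 1061 to 1169 CPM in SHMT2 fl/fl livers and 151 to 369 CPM in SHMT2 HKO livers, with 5 of 7 called lower. *Spp1* alone made 792 to 944 CPM of the control sum and 104 to 215 CPM of the knockout sum, and the other 6 markers summed to 225 to 269 CPM and 46.8 to 154 CPM. Which liver cells the *Spp1* and *Cd9* reads came from was not tested, so the sum need not be macrophage RNA alone. *Gpnmb*, not called, was within the control range in SHMT2 HKO mouse 3 (63.3 CPM). Leukocyte markers summed to 215 to 248 CPM and 76.9 to 135 CPM, with 5 of 5 called lower. General macrophage markers (*Adgre1*, *Csf1r*, *Cd68*, *Lyz2*, *Mpeg1*, *Mertk*) summed to 725 to 933 CPM and 352 to 477 CPM, with 4 of 6 called lower. Kupffer cell markers (*Clec4f*, *Vsig4*, *Timd4*, *Marco*, *Cd5l*) went the other way, from 57.6 to 166 CPM in SHMT2 fl/fl to 241 to 335 CPM in SHMT2 HKO livers, with 3 of 5 called higher. The dendritic cell sum was 16.4 to 16.6 CPM in SHMT2 fl/fl livers and 6.32 to 12.2 in SHMT2 HKO livers (3 of 6 called lower), and the T and NK cell sum 17.6 to 22.8 and 2.99 to 4.80 (6 of 6 lower). B cell markers, with 0 of 4 called, summed to 4.88 to 5.90 and 1.91 to 4.30 CPM. Of 6 neutrophil markers, *Ly6g* and *Retnlg* were at 0 in some livers and were not tested, 1 of the other 4 was called lower, and the sum was 7.79 to 11.99 and 4.46 to 8.23 CPM. No other listed marker was at 0 in any liver. Over all lists, the 30 markers called lower kept their sign without TMM and with upper-quartile and ERCC scaling, compared with 5 of the 8 called higher. In every fit that left out a mouse, 20 of the 30 and 5 of the 8 were called, among them 3 of 5 leukocyte, 4 of 4 macrophage, 3 of 5 recruited macrophage and 2 of 3 Kupffer cell calls.

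Among markers of cells that are not leukocytes, endothelial markers summed to 126 to 150 CPM in SHMT2 fl/fl and 203 to 236 CPM in SHMT2 HKO livers (2 of 5 called higher), and stellate cell markers to 124 to 166 and 90.4 to 163 CPM (1 higher and 2 lower of 5). Cholangiocyte markers summed to 128 to 237 and 22.7 to 29.9 CPM (4 of 4 called lower). Hepatocyte markers, the most abundant in every liver, summed to 53425 to 65588 CPM and 66723 to 100004 CPM (2 of 6 called higher). These 2 calls, *Apob* and *Ttr*, were lost without TMM (adjusted p = 0.315 and 0.157), had a negative sign with ERCC scaling (-0.07 and -0.06), and were lost without SHMT2 fl/fl mouse 1, 2 or 3 or SHMT2 HKO mouse 2 (*Ttr* also without SHMT2 HKO mouse 1), with adjusted p-values up to 0.129 and 0.169. The part of these markers in the values of the 10 genes was not tested. In whole liver, fewer cells of a type and less RNA per cell cannot be told apart.

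**Figure D3:**
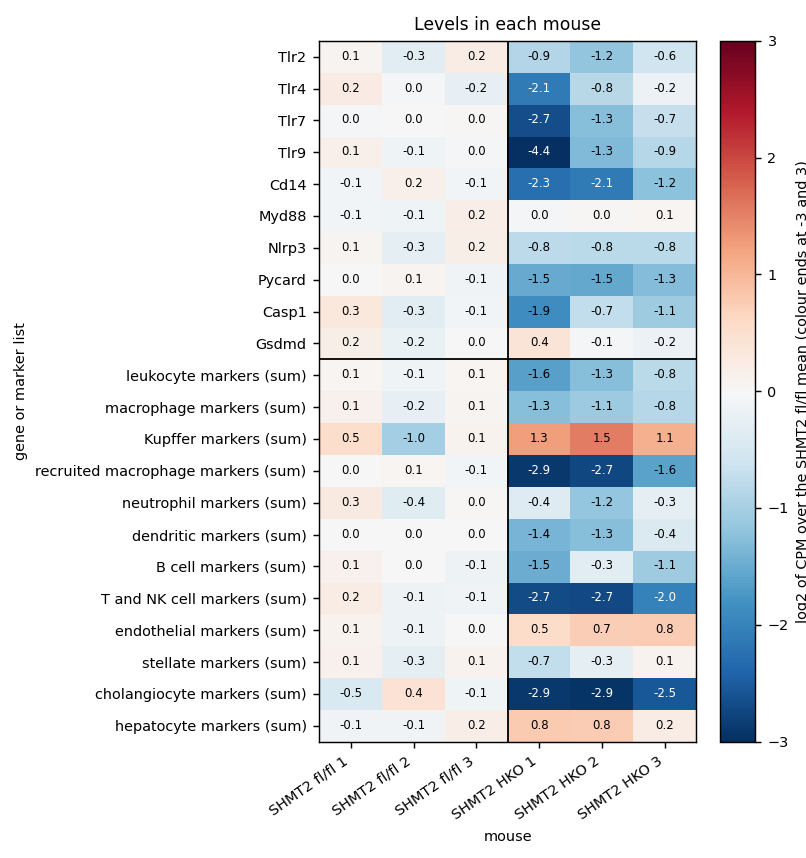
Each row shows a gene, or the summed CPM of a marker list, in each of the 6 livers as log2 of the level over the SHMT2 fl/fl mean, from blue (lower) to red (higher), with colors ending at -3 and 3. *Tlr4*, *Tlr7*, *Tlr9* and *Cd14* are lowest in SHMT2 HKO mouse 1 and highest in SHMT2 HKO mouse 3 among knockouts, as are *Myd88* and the leukocyte, macrophage, recruited macrophage, dendritic, stellate and endothelial marker rows, while the Kupffer cell row is above the control mean in all SHMT2 HKO mice.

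For each of the 10 genes, the other gene with the most similar pattern over the 6 livers was found by Pearson's r of log2 CPM among 12318 genes. The genotype difference and scaling are shared by all points, and the highest of so many correlations is high by construction. *Tlr2* lay closest to *Il1rn*, the IL-1 receptor antagonist (r = 0.997), and *Casp1* to *Gbp4*, an interferon-induced guanylate-binding protein (r = 0.998). *Tlr4* lay closest to *Ets1* (r = 0.997), *Tlr7* to *Ntf3* (r = 0.996), *Tlr9* to *Sox17* (r = 0.997) and *Cd14* to *Snhg18* (r = 0.999). The closest genes were *Card10* for *Pycard* (r = 0.9996), *Mum1* for *Nlrp3* (r = 0.994), *Avpr1a* for *Gsdmd* (r = 0.986) and *Spen* for *Myd88* (r = 0.964).

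Other genes of the pathways were counted from 9 lists with 97 genes, of which 93 were tested. Of these, 28 were called lower and 11 higher in SHMT2 HKO livers (16.5% and 12.5% of all genes tested), with a median log2 fold change of -0.38. Of the 39 calls, 14 held with each mouse left out in turn and 25 were lost in at least 1 such fit, where their highest adjusted p-values ranged from 0.05004 to 0.172. The calls numbered 17 without SHMT2 fl/fl mouse 1, 22 without SHMT2 fl/fl mouse 2, 15 without SHMT2 fl/fl mouse 3 and 20 without SHMT2 HKO mouse 2. Over all genes, those fits called 2699, 2547, 2426 and 3023, in that order, compared with 4663 with all mice. The split depended on scaling, with 2 higher and 41 lower without TMM, 5 higher and 30 lower with upper-quartile scaling, and 0 higher and 29 lower with ERCC scaling. The 28 genes called lower kept their sign in all 3 scalings, compared with 4 of the 11 called higher.

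Among 8 other Toll-like receptors, 2 were called higher and 3 lower (*Tlr3*, *Tlr6* and *Tlr13*). These 3 lower calls were each lost without SHMT2 fl/fl mouse 1 or 3 and without other mice, with adjusted p-values up to 0.139 for *Tlr3*, 0.0820 for *Tlr6* and 0.0826 for *Tlr13*. *Tlr5*, the flagellin receptor, had 5.06, 5.34 and 4.88 CPM in SHMT2 fl/fl mice and 11.2, 12.7 and 15.8 CPM in SHMT2 HKO mice 1, 2 and 3. Every knockout exceeded every control, and *Tlr5* rose with a log2 fold change of 1.38 (SE 0.18, adjusted p = 0.00171). The call held without TMM (0.97, adjusted p = 0.0163) but not with ERCC scaling (0.75, adjusted p = 0.362). *Tlr12*, which recognizes profilin of parasites, rose from 24.4 ± 3.33 to 44.3 ± 6.89 CPM (SD, n = 3 each, log2 fold change 0.86, adjusted p = 0.00635), and was not called without TMM (0.45, adjusted p = 0.133) or with ERCC scaling (0.22, adjusted p = 0.750). *Tlr1*, the partner of *Tlr2*, had 10.4, 5.49 and 8.69 CPM in SHMT2 fl/fl mice and 1.49, 2.99 and 5.98 CPM in SHMT2 HKO mice, which overlapped, and it was not called (adjusted p = 0.0820).

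Of 7 accessory proteins, 3 were called lower and 2 higher. *Unc93b1*, which carries the nucleic acid receptors TLR3, TLR7 and TLR9 to endosomes, had 107, 98.6 and 102 CPM in SHMT2 fl/fl mice and 57.2, 58.9 and 62.3 CPM in SHMT2 HKO mice. It fell with a log2 fold change of -0.79 (SE 0.11, adjusted p = 0.00215) and was called with each mouse left out. *Ly96*, which encodes the TLR4 partner MD-2, had 3.88 ± 0.393 and 4.64 ± 0.921 CPM (SD, n = 3 each, adjusted p = 0.433), and *Lbp*, the lipopolysaccharide-binding protein, 81.2 ± 6.30 and 153 ± 91.0 CPM, with 258 CPM in SHMT2 HKO mouse 1 (adjusted p = 0.0918).

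Of 14 adaptors and kinases downstream of the receptors, 1 was called higher and 2 lower, where 29% of all genes tested were called in either direction. The other 11 were not called, and neither was *Myd88*. *Ticam2*, the bridging adaptor of TLR4, was called lower (log2 fold change -1.30, adjusted p = 0.0372), a call lost in each fit that left out a mouse (adjusted p up to 0.135), and it shares 838 exonic bp with *Tmed7* on the same strand. *Tirap*, the adaptor that joins MyD88 to TLR2 and TLR4, was called higher (0.76, adjusted p = 0.0117), a call lost without SHMT2 fl/fl mouse 2 (adjusted p = 0.05004), without TMM (0.33, adjusted p = 0.184) and, with a change of sign, with ERCC scaling (-0.00629). *Tab1*, a partner of the kinase TAK1, fell from 13.2 ± 0.522 to 6.84 ± 1.44 CPM (SD, n = 3 each, log2 fold change -0.94, adjusted p = 0.00716). *Irak4*, the first kinase of the MyD88 complex, had 17.0 ± 2.26 and 18.7 ± 1.84 CPM (adjusted p = 0.532), and *Traf6*, the ubiquitin ligase below it, 15.5 ± 1.80 and 17.3 ± 3.88 CPM (adjusted p = 0.541). Among 11 NF-κB and IRF proteins, 4 were called lower and 0 higher at an adjusted p-value under 0.05. *Relb*, of the non-canonical NF-κB branch, had 23.04, 25.9 and 27.2 CPM in SHMT2 fl/fl mice and 4.46, 6.94 and 11.97 CPM in SHMT2 HKO mice 1, 2 and 3. All knockouts lay below all controls, and *Relb* fell by 1.70 on the log2 scale (SE 0.31, adjusted p = 0.00665). *Rela*, of the canonical branch, had 80.6 ± 4.98 and 74.7 ± 7.11 CPM (adjusted p = 0.529). *Nfkb1*, of the same branch, was called lower (log2 fold change -0.60, adjusted p = 0.0368). That call was lost without SHMT2 fl/fl mouse 1, 2 or 3 or SHMT2 HKO mouse 1 or 2 (adjusted p up to 0.129). Of 7 inhibitors, *Tollip* was called higher, with a negative sign without TMM (-0.0138) and with ERCC scaling (-0.28), and *Tnip1*, a partner of A20, fell from 45.0 ± 3.85 to 22.3 ± 5.94 CPM (adjusted p = 0.00699). The *Tollip* call was also lost without SHMT2 fl/fl mouse 1, 2 or 3 or SHMT2 HKO mouse 2 (adjusted p up to 0.0915).

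**Figure D4:**
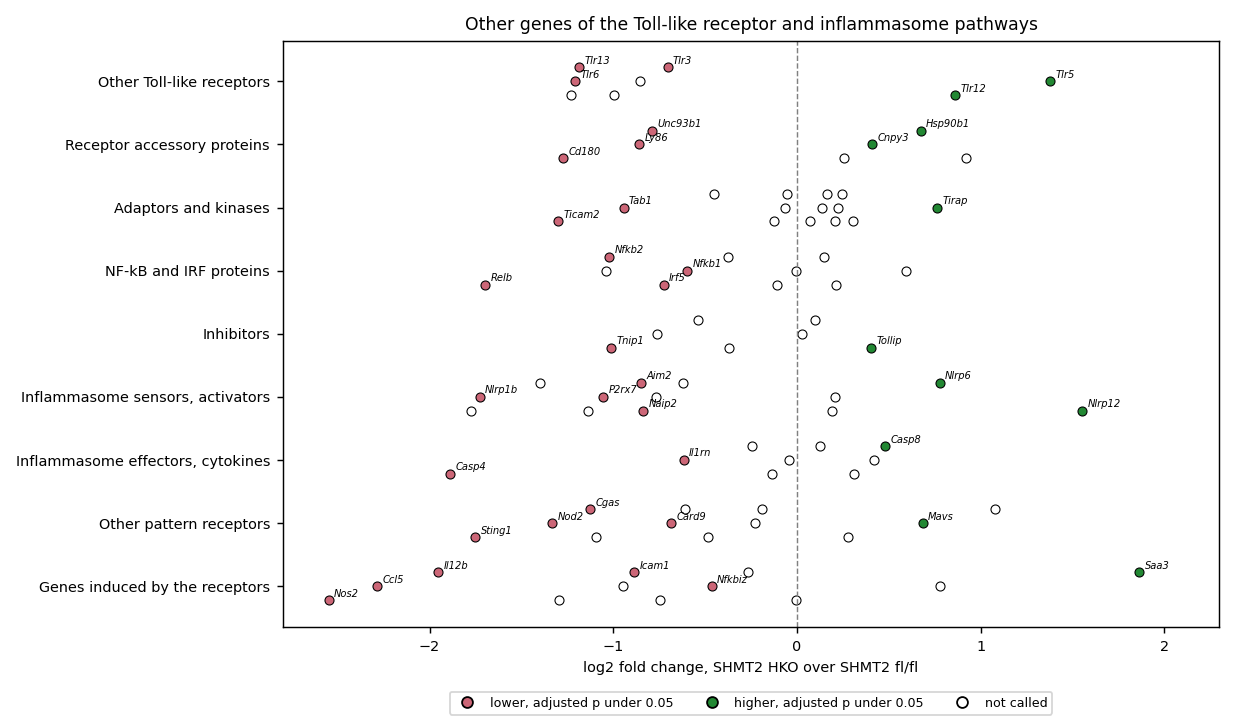
Log2 fold change of SHMT2 HKO over SHMT2 fl/fl livers for the 93 tested genes of 9 pathway lists, 1 row of points per list, with called genes colored and named. Called genes lie on both sides of 0, with 28 to the left and 11 to the right. Of the 14 adaptors and kinases, *Ticam2*, *Tab1* and *Tirap* are called and 11 are not, where 29% of all genes tested were called in either direction.

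Of 14 other inflammasome sensors and activators, 13 were tested, with 4 called lower and 2 higher. *Nlrp12*, an NLR protein known mainly as a brake on NF-κB, had 24.0, 33.9 and 35.2 CPM in SHMT2 fl/fl mice and 98.9, 91.2 and 82.9 CPM in SHMT2 HKO mice 1, 2 and 3. The groups were far apart, and *Nlrp12* rose with a log2 fold change of 1.55 (SE 0.17, adjusted p = 0.00111). It was called without TMM (1.13, adjusted p = 0.00192) and not with ERCC scaling (0.81, adjusted p = 0.276). Small RNA genes lie in its exons and could share its reads. *P2rx7*, the ATP-gated channel that triggers NLRP3, fell from 10.3 ± 2.58 to 4.97 ± 0.642 CPM (SD, n = 3 each, log2 fold change -1.06, adjusted p = 0.00995). *Nek7*, the NLRP3-binding kinase, had 55.0 ± 4.26 and 63.5 ± 13.3 CPM (adjusted p = 0.363). *Nlrp1b* and *Naip2*, both called lower, have close paralogs whose reads may be split between copies. The *Nlrp1b* call held with each mouse left out (adjusted p up to 0.0473). That of *Naip2* was lost without SHMT2 fl/fl mouse 1 or 3 or SHMT2 HKO mouse 2 (adjusted p up to 0.102).

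Of 9 effectors and cytokines of the inflammasome, 2 were called lower and 1 higher. *Casp4*, which encodes caspase-11, the cytosolic sensor of lipopolysaccharide that also cleaves gasdermin D, had 11.6, 8.50 and 10.3 CPM in SHMT2 fl/fl mice and 2.42, 2.48 and 3.27 CPM in SHMT2 HKO mice. Its groups did not overlap, and it fell by 1.89 on the log2 scale (SE 0.21, adjusted p = 0.00125), with a call in each fit that left out a mouse. *Il1rn*, the IL-1 receptor antagonist, was the other lower call (log2 fold change -0.62, adjusted p = 0.0282), lost without SHMT2 fl/fl mouse 1 or 3 or SHMT2 HKO mouse 2 (adjusted p up to 0.110). *Il1a*, *Il1b* and *Il18* were not called. *Il1b* had 3.74, 0.941 and 3.18 CPM in SHMT2 fl/fl mice and 2.29, 2.79 and 2.16 CPM in SHMT2 HKO mice, within the control range, and the 95% interval of its log2 fold change ran from -1.18 to 0.91 (adjusted p = 0.848). *Il18* had 6.82 ± 0.711 and 9.16 ± 2.90 CPM (SD, n = 3 each, adjusted p = 0.247).

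Of 12 other pattern receptors and their adaptors, 4 were called lower and 1 higher. *Sting1*, the adaptor of the cytosolic DNA sensor cGAS, fell from 16.1 ± 0.580 to 4.78 ± 1.28 CPM (SD, n = 3 each, log2 fold change -1.75, adjusted p = 0.00149), and *Mavs*, the mitochondrial adaptor of RNA helicase sensors, rose from 61.3 ± 6.94 to 98.6 ± 5.78 CPM (0.68, adjusted p = 0.00622), a change that lost its call without TMM (adjusted p = 0.173) and its sign with ERCC scaling (-0.01). Of 15 genes that Toll-like receptor signaling induces, 12 were tested, with 5 called lower and 1 higher, while *Il6*, *Il10* and *Ptgs2* had too few counts. *Ccl5*, a chemokine of T cells and macrophages, had 7.44, 7.37 and 7.18 CPM in SHMT2 fl/fl mice and 1.23, 1.37 and 1.89 CPM in SHMT2 HKO mice. It fell by 2.28 on the log2 scale (SE 0.23, adjusted p = 0.000943). T and NK cell markers, whose part in this was not tested, were lower too. *Icam1*, a leukocyte adhesion protein, fell from 42.7 ± 5.05 to 23.1 ± 5.07 CPM (adjusted p = 0.00766). *Tnf* had 1.36 ± 0.162 and 0.809 ± 0.329 CPM (adjusted p = 0.167), and *Ccl2* 4.62 ± 1.36 and 3.83 ± 0.764 CPM (adjusted p = 0.510).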

How the data were processed

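Liver RNA of 6 mice was sequenced as read pairs from NEBNext Ultra libraries at Azenta Life Sciences. Per the submitters' processing notes and the study's methods, reads were trimmed (Trimmomatic 0.36), aligned with STAR 2.5.2b to GRCm38 with ERCC sequences and counted per gene with featureCounts of Subread 1.5.2. The table that the authors deposited holds the raw counts, as whole numbers. Strand use and the handling of overlapping genes are not given in the sources used here. The 92 ERCC rows entered neither library sizes nor tests. Columns were mapped to samples by their names. Symbols and coordinates are from GENCODE M21, where 259 gene IDs had no entry.

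Genes were filtered with filterByExpr, scaled by TMM and tested with glmQLFit and glmQLFTest (robust) of edgeR 4.0.16 in R 4.3.3, with Benjamini-Hochberg adjustment over 16089 genes. CPM use TMM-scaled library sizes. Alternatives were DESeq2 1.42.0, limma-voom (limma 3.58.1), library size without TMM, upper-quartile and ERCC scaling, other filters (1 count in any sample, or 10 counts in all), dispersions not estimated robustly, a block for the replicate number, and fits without each mouse. The study used edgeR normalization with limma-voom. The code was tested on simulated data.

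The 10 genes and all lists were chosen with earlier results of these data known. Genes named are the 10, *Shmt2*, genes of the pathway lists, markers, the closest gene in pattern to each of the 10 (prior count 2, mean log2 CPM of at least 1), and *Acaa1a* and *Gm45205* as overlapping neighbors. The rule took pathway genes that passed the test or were needed for a count. *Tlr1*, *Ly96*, *Lbp*, *Irak4*, *Traf6*, *Rela*, *Nek7*, *Il1a*, *Il1b*, *Il18*, *Tnf* and *Ccl2*, which did not pass, and the neighbor *Tmed7* were chosen after their values were seen. Promoter entries were used for 6 of 10 genes, with those on chromosome 18, where *Cd14* lies, left out. The floor and the Poisson interval cover counting error only, while intervals of fold changes also include the spread between livers.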

Additional observations from a re-analysis of the deposited data

How the results depend on the processing

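The 10 genes gave between 4 and 7 calls in the fits with all 6 mice, all lower in SHMT2 HKO livers. Scaling moved the center of all genes, by -0.42 on the log2 scale without TMM and -0.72 with ERCC RNAs. The median of the 10 genes moved with it to -1.42 and -1.69, while its distance from the median of all genes stayed at -1.03 and -0.995. ERCC scaling called 2866 of all genes. Calls over all genes were 2012 higher and 2651 lower in the main comparison, 539 and 4923 without TMM, 1461 and 3039 with upper-quartile scaling and 107 and 2759 with ERCC scaling. The fold change of *Myd88* reversed to -0.40 without TMM, -0.0719 with upper-quartile scaling, -0.69 with ERCC scaling, -0.0069 without a count filter and -0.0255 with 10 counts in every sample, and that of *Gsdmd* to -0.37, -0.0154 and -0.73 under the 3 scalings. With a mouse left out, the *Myd88* value was -0.0242 without SHMT2 fl/fl mouse 1, -0.0477 without SHMT2 fl/fl mouse 2 and -0.0274 without SHMT2 HKO mouse 3 (up to 0.13 without SHMT2 fl/fl mouse 3), and the *Gsdmd* value -0.0196 without SHMT2 fl/fl mouse 2 and -0.11 without SHMT2 HKO mouse 1 (up to 0.17 without SHMT2 fl/fl mouse 1). The cause of these reversals was not tested, and neither gene was called in any fit. With each mouse left out in turn, calls ranged from 2426 to 5597 over all genes, 2 to 7 of the 10 genes, 15 to 43 of the pathway genes and 27 to 44 of the markers. The median of the 10 genes then ranged from -1.30 to -0.88, and *Shmt2* from -2.16 to -1.92. Of the 10 genes, 7 to 9 did not overlap, the 9 being 8 lower and 1 higher without SHMT2 fl/fl mouse 3. Fewer livers separate more easily, and the share of all genes without overlap was not counted in these fits. Livers of the same number did not deviate together (correlations -0.0459, 0.0125 and -0.0766). With so few mice this cannot show whether those of the same number shared a litter or cage. With the replicate number as a block, 3584 genes, 4 of the 10 genes, 27 pathway genes and 36 markers were called, and *Casp1* lost its call (adjusted p = 0.0594). *Tlr9* was not tested with 10 counts in every sample. The lowest counts among the 10 genes were 3 to 37 per knockout liver, for *Tlr9*. The part of depth in the missing calls was not tested, and *Pycard*, at 38 to 58 counts per knockout liver, was called.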
